A study of Mus musculus with 18 samples.

Results

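The mouse has 6 conventional actin genes, and all 6 were found by their Ensembl identifiers among the 32286 gene entries of the deposited count table. Actb (ENSMUSG00000029580) and Actg1 (ENSMUSG00000062825) encode the cytoplasmic beta and gamma actins. Acta2 (ENSMUSG00000035783) and Actg2 (ENSMUSG00000059430) encode the alpha and gamma actins of smooth muscle. Acta1 (ENSMUSG00000031972) and Actc1 (ENSMUSG00000068614) encode the alpha actins of skeletal and cardiac muscle. Their levels, and the share of each in the summed actin counts, were followed in all 18 RNA sequencing libraries.

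The libraries came from AT-3 and E0771, mouse mammary carcinoma cell lines that grow in C57BL/6 mice. Each line carried the retroviral vector pRetroX, which switches its insert on with doxycycline, in one of 3 forms: the empty vector, wild-type MRTFA, or MRTFA with the Y238A change, described by the submitters as deficient in binding SRF. All 6 groups, the empty-vector controls included, received 2 µg/ml doxycycline for 48 h, and each held 3 libraries from replicate sets that the series' design calls separate. Whether a line was a single clone or a pool was not given in the sources used here. The comparisons ask which actin genes respond to MRTFA, and which of those responses are seen with the form described as deficient in SRF binding.

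Actin is the protein of the cell's thin filaments, and it also controls its own genes. MRTFA is held in the cytoplasm by actin monomers; when monomers are taken up into filaments it enters the nucleus and acts as a coactivator of SRF, a transcription factor that binds a DNA element called the CArG box. Most cells outside muscle make mainly the beta and gamma cytoplasmic actins, and the 4 muscle actins are usually markers of muscle, myofibroblast or pericyte identity.

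The libraries held 81265466 to 115260128 counts each. Levels are given as CPM, counts scaled to one common library size, with each library's total adjusted by the TMM method, which estimates a library's size from its least variable genes. The entry named MRTFA, which serves as a check of the labels, was at or below 0.115 CPM in the 6 empty-vector libraries. It reached 5434 ± 1445 CPM (SD, n = 3) with wild-type MRTFA and 2105 ± 195 CPM (SD, n = 3) with Y238A MRTFA in AT-3, and 761 ± 91.1 and 320 ± 37.4 CPM (SD, n = 3 each) in E0771. The wild-type form was therefore the more abundant transcript in both lines, so that form and level cannot be told apart in any comparison of wild-type with Y238A MRTFA. Each form was also higher in AT-3 than in E0771, so line and level cannot be told apart in comparisons of responses between lines. Srf itself stood at 186 CPM with the empty vector, 584 CPM with wild-type and 92.9 CPM with Y238A MRTFA in AT-3, and at 162, 376 and 136 CPM in E0771.

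Of the markers of the labelled cell type, the epithelial genes Epcam, Krt8 and Krt18 had mean levels of 0.76, 0.057 and 0.48 CPM in empty-vector AT-3 cells, so these defining markers were near 0 there. The epithelial genes Krt19, Krt7 and Cdh1 were at 3.88, 2.1 and 0.6 CPM in the same cells. In AT-3, Krt19, Krt8 and Krt7 stood at 33.6, 10 and 2.31 CPM with wild-type MRTFA. With Y238A MRTFA they stood at 69.5, 0.128 and 0.188 CPM. Epcam, Krt18 and Cdh1 stood at 0.565, 0.281 and 1.01 CPM with wild-type and at 0.74, 0.319 and 0.638 CPM with Y238A MRTFA in AT-3. Empty-vector E0771 cells had 317 CPM of Krt8, 2.02 CPM of Epcam and 0.026 CPM of Krt18. The summed level of the 6 epithelial markers in AT-3 ranged from 7.61 to 8.33 CPM with the empty vector. With wild-type MRTFA it was 46.7 to 48.7 CPM, and with Y238A MRTFA 66.2 to 78.6 CPM. In E0771 it was 306 to 329, 576 to 688 and 378 to 401 CPM in the same order. Krt8 made up most of the E0771 sum, with means of 317, 622 and 387 CPM. Epcam was at 2.02, 1.64 and 2.38 CPM there, and Krt7 at 1.84, 7.67 and 1.39 CPM. Of 5 fibroblast markers, Thy1, Dcn and Lum were at 0.0612, 0.0602 and 0.0463 CPM in empty-vector AT-3 cells, while the receptor genes Pdgfrb and Pdgfra were at 411 and 111 CPM there and at 50.2 and 45 CPM in E0771. With wild-type MRTFA, beside the rise of the actins, Pdgfrb stood at 70 and Pdgfra at 20.1 CPM in AT-3 and at 38 and 21.1 CPM in E0771. Thy1 went the other way in AT-3, to 6.47 CPM with wild-type MRTFA, and Dcn and Lum were at 0.108 and 0 CPM there. In E0771 with wild-type MRTFA, Thy1, Dcn and Lum were at 0.23, 0.0179 and 0 CPM. The summed level of the 5 ranged from 499 to 542 CPM with the empty vector, 88.3 to 103.2 with wild-type and 376 to 421 with Y238A MRTFA in AT-3, and from 85 to 102.5, 52.6 to 64 and 64.5 to 93.7 CPM in E0771.

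Some libraries contained low levels of transcripts that otherwise belonged to other groups. Among 32 genes, actins left out, with a mean above 10 CPM under wild-type MRTFA in AT-3 and a mean under 0.02 CPM with that line's empty vector, the median level in AT-3 Y238A replicates 1, 2 and 3 was 1.27%, 0.265% and 0.11% of the wild-type mean. Among 220 genes expressed in AT-3 and nearly absent from E0771, the median level was 1.37% of the AT-3 level in E0771 empty-vector replicate 2, 0.505% in E0771 wild-type replicate 2 and 0.264% in E0771 Y238A replicate 1, and at most 0.0556% in the other E0771 libraries. AT-3 Y238A replicate 1 and these 3 E0771 libraries are the 4 libraries that results at low levels are given below with and without. AT-3 Y238A replicate 2, at about the same percentage as E0771 Y238A replicate 1 but over other genes, was kept. The source of these transcripts was not tested.

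The stretch of 250 bases before the transcription start is shown for the 4 actin genes that matched an entry of the RefSeq promoter table (GRCm38.p6), because these genes moved together with MRTFA and the CArG box is the element that SRF reads. The sequences run 5′ to 3′ in the direction of the gene and end at the base before the start. The start is the RefSeq one. The gene spans given below for Actc1, Acta2 and Actg1 reach upstream of it, so the distances hold for that start only. Capitals mark each match to the CArG box (CC, then 6 bases that are A or T, then GG) and each CArG-like match with 1 G or C among those 6 bases. Both patterns read the same on either strand, so both strands were covered.
Actg1, chr11:120348496-120348745, minus strand: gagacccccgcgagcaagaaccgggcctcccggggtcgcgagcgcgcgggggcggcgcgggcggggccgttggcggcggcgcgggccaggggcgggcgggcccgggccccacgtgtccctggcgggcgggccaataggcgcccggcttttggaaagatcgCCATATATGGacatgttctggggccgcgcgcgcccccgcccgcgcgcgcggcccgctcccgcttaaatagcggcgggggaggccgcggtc
Acta1, chr8:123894776-123895025, minus strand: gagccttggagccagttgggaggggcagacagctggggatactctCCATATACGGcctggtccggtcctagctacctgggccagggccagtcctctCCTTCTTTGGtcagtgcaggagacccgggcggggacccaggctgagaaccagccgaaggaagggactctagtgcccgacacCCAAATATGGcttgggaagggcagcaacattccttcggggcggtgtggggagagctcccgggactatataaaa
Acta2, chr19:34255374-34255623, minus strand: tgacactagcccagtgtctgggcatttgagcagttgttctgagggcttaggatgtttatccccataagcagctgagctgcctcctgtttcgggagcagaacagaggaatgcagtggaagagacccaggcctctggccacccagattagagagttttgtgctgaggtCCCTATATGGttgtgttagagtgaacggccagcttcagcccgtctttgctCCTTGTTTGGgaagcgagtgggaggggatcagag
Actc1, chr2:114052876-114053125, minus strand: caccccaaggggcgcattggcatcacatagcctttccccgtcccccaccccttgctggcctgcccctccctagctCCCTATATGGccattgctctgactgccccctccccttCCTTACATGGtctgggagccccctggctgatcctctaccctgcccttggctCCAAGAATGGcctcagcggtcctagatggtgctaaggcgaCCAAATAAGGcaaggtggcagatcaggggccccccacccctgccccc

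Actg1 had 1 CArG box in this window, CCATATATGG, which began 90 bases before the start. Acta1 had the box CCAAATATGG 73 bases before the start and CArG-like matches at 205 and 154 bases, CCATATACGG and CCTTCTTTGG. Actc1 had the box CCAAATAAGG 47 bases before the start and 3 CArG-like matches farther upstream, at 175, 138 and 87 bases. Acta2 had no exact box in the window and 2 CArG-like matches, CCCTATATGG at 84 bases and CCTTGTTTGG at 34 bases. The letters CCCTATATGG occurred in both Acta2 and Actc1. Among 32851 promoter windows of 300 bases in the same table, 1.63% held an exact CArG box, 8.5% held a CArG-like match and 9.98% held either. These are matches of letters and were not measured as binding.

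**Figure D1:**
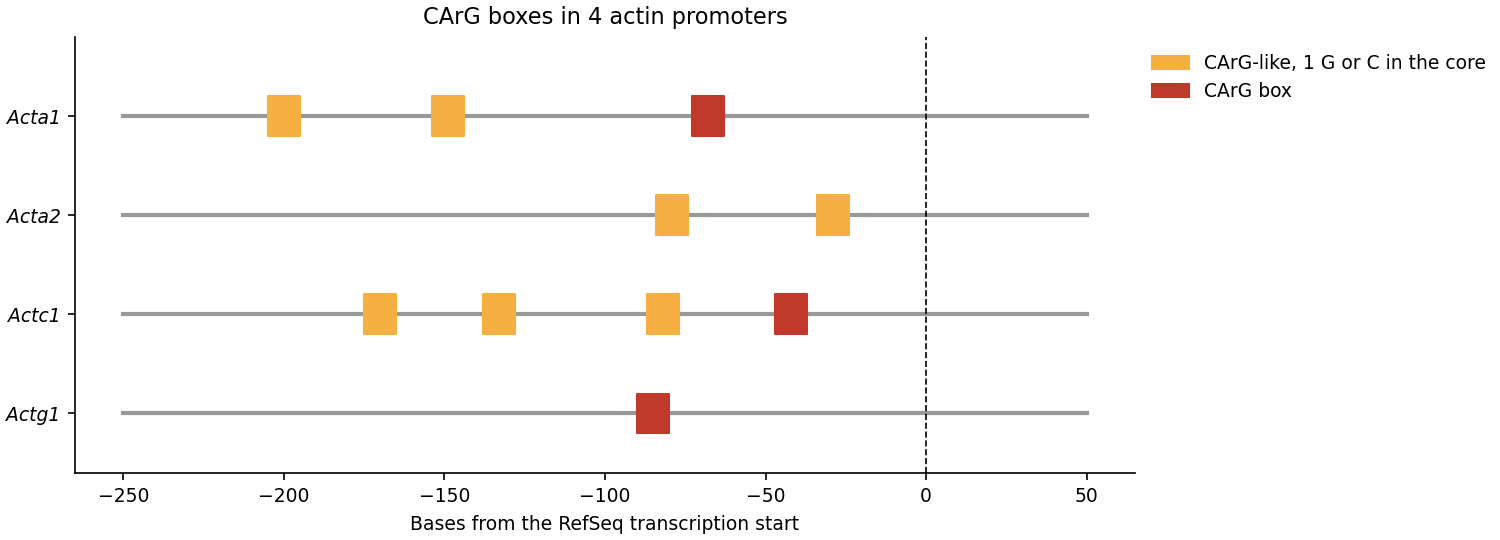
CArG boxes (red) and CArG-like matches with 1 G or C in the core (orange) in the promoters of 4 actin genes, plotted by distance in bases from the RefSeq transcription start (dashed line). Acta1, Actc1 and Actg1 each have 1 exact box, between 90 and 47 bases upstream, and Acta2 has 2 CArG-like matches.

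The genes lie on 6 chromosomes, all on the minus strand in GRCm38: Actb at chr5:142903115-142906754, Actg1 at chr11:120345690-120348542, Acta1 at chr8:123891769-123894751, Acta2 at chr19:34241090-34255590, Actc1 at chr2:114047282-114053548 and Actg2 at chr6:83512905-83536265. Their coding sequences are alike: the cytoplasmic pair shared 88.65% of bases, pairs of muscle actins shared 82.54 to 86.16%, and a cytoplasmic with a muscle actin shared 81.48 to 84.83%. Reads can therefore be shared between copies. Of all windows of 100 bases in the longest coding transcript, 51.1% in Actg1 and 1.1% in Actb also occurred in a transcript of another gene, and 0% did so in the 4 muscle actins. With windows of 50 bases the shares were 56.7% in Actg1, 14.2% in Actb, 2.22% in Acta1, 0.352% in Acta2 and 0% in Actc1 and Actg2. The copies were mostly processed pseudogenes, so the level of Actg1, and less so that of Actb, is uncertain by an amount that depends on how shared reads were counted. Of 22 other entries that shared a window of 50 bases with an actin, 2 were among the counted entries. The larger was the protein-coding gene Lrrc58, which shared windows with Actb and Actg1 and held 1.04% of the summed actin counts.

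Both cytoplasmic actins rose with wild-type MRTFA and fell with Y238A MRTFA in both lines. Actb in AT-3 stood at 7497, 7438 and 7612 CPM with the empty vector, at 12750.1, 14279 and 14028 CPM with wild-type MRTFA, and at 5683, 5440.01 and 5566 CPM with Y238A MRTFA. The 3 groups did not overlap. In E0771 the Actb values were 5067, 5431 and 5399 CPM with the empty vector, 12041, 11696 and 11306 CPM with wild-type, and 4896, 4390 and 4852 CPM with Y238A MRTFA, again without overlap. The fitted log2 fold change of wild-type over empty vector was 0.86 ± 0.05 (SE, edgeR adjusted p = 3.05e-12) in AT-3 and 1.14 ± 0.05 (edgeR adjusted p = 5.51e-13) in E0771, or 1.82-fold and 2.2-fold. Y238A MRTFA lowered Actb by a log2 change of -0.43 ± 0.05 in AT-3 (edgeR adjusted p = 3.21e-07). In E0771 the change was -0.17 ± 0.05 (edgeR adjusted p = 0.0271). That last call was lost without the 4 libraries named above (edgeR adjusted p = 0.122), without E0771 empty-vector replicate 2 (0.0950729) or 3 (0.0875765), without E0771 Y238A replicate 2 (0.0966), and with library totals (0.0535).

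Actg1 moved in the same directions as Actb. In AT-3 it was at 1981, 1962 and 2010.4 CPM with the empty vector, 3260.3, 3746 and 3590.1 CPM with wild-type MRTFA and 1590.1, 1539 and 1602 CPM with Y238A MRTFA. In E0771 the values were 1717, 1800.1 and 1758 CPM, then 3471, 3313 and 3234 CPM, then 1493, 1331 and 1452 CPM. The groups within a line did not overlap. Wild-type MRTFA raised Actg1 by a log2 change of 0.83 ± 0.05 in AT-3 (edgeR adjusted p = 1.12e-11) and 0.93 ± 0.05 in E0771 (2.1e-11). Y238A MRTFA lowered it by -0.33 ± 0.05 in AT-3 (edgeR adjusted p = 1.78e-05) and -0.30 ± 0.05 in E0771 (4.47e-04). The ratio of Actb to Actg1 counts stayed between 2.95 and 3.91 over the 18 libraries.

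**Figure D2:**
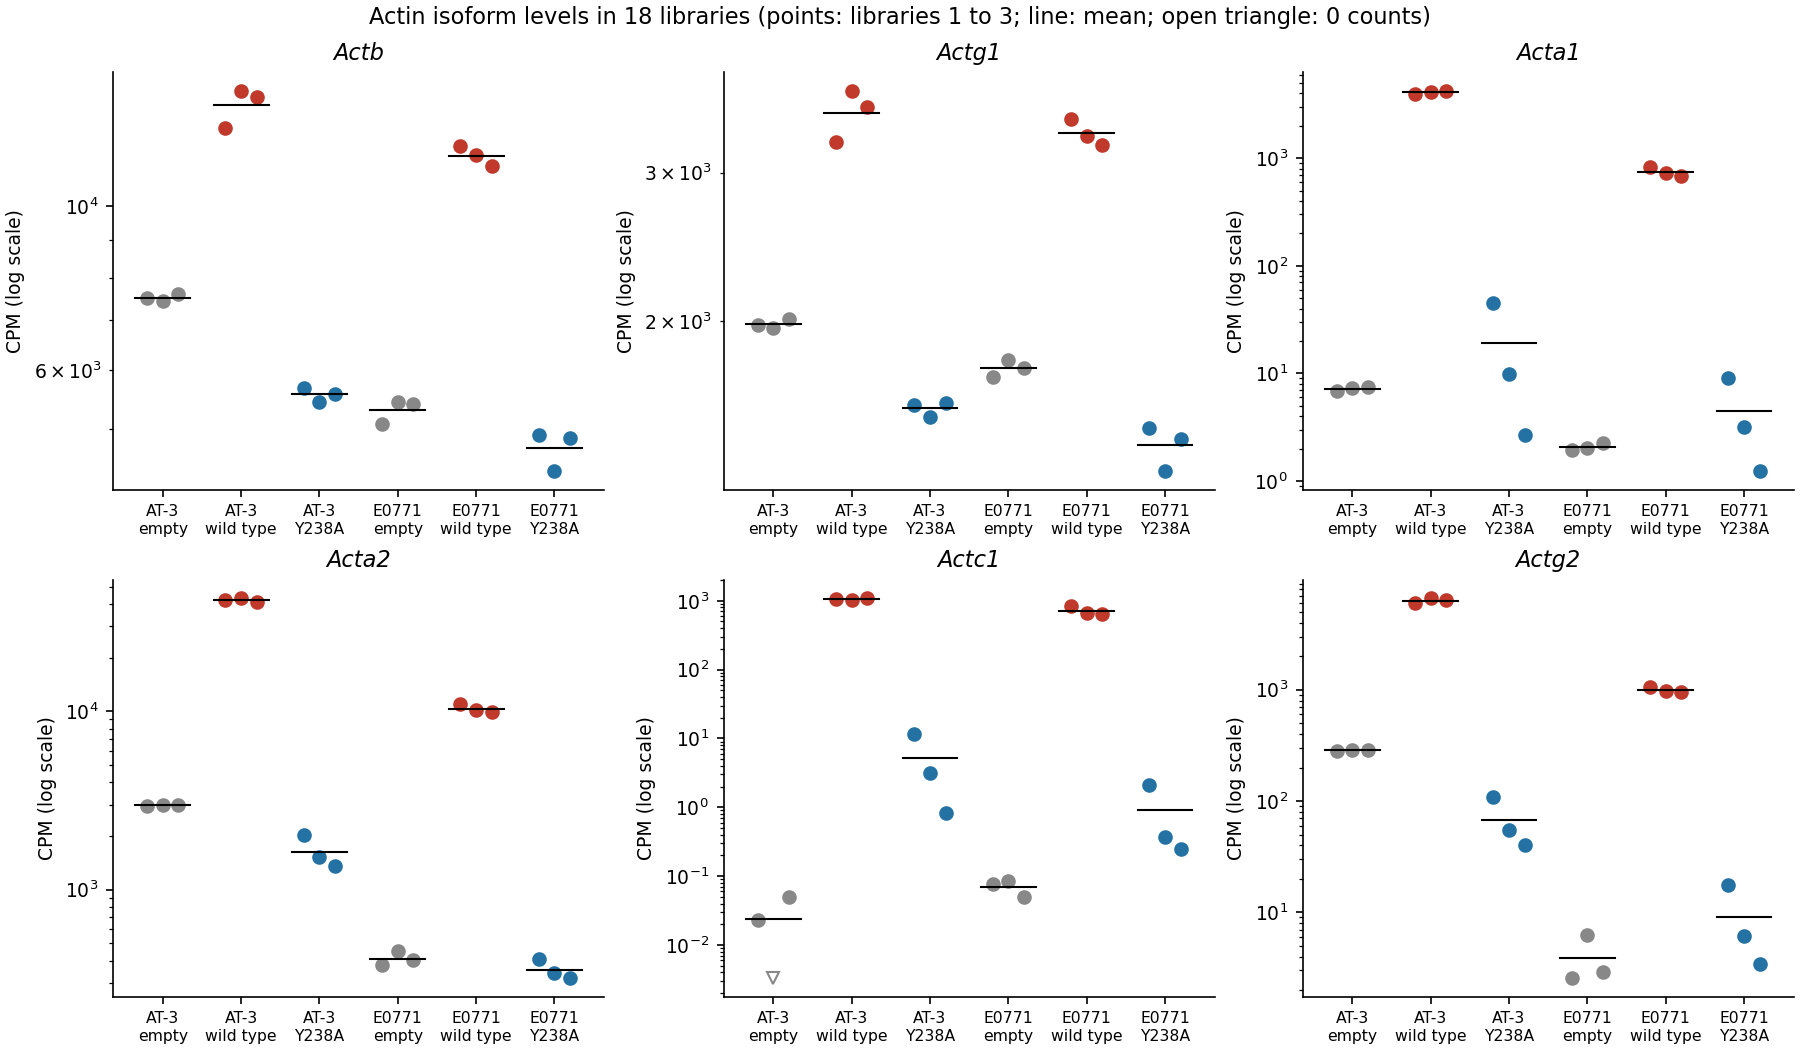
CPM of each actin gene in the 18 libraries (log axis, 1 panel per gene). Points are the 3 replicates of a group, lines are group means, and an open triangle marks a library with 0 counts; every wild-type MRTFA library lies above every other library of its line in all 6 panels.

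Acta2, the smooth muscle alpha actin, rose with wild-type MRTFA in both lines and fell with Y238A MRTFA in AT-3. In AT-3 it stood at 2925, 2974 and 2989 CPM with the empty vector and at 41912, 42877 and 41184 CPM with wild-type MRTFA. With Y238A MRTFA the AT-3 values were 2017, 1523 and 1364 CPM, all below the empty vector. In E0771 the empty-vector values were 377, 450.2 and 403 CPM, those with wild-type MRTFA 11009, 10139.9 and 9896 CPM, and those with Y238A MRTFA 409.7, 339 and 320.3 CPM. The wild-type group stood apart in both lines, and the Y238A group overlapped the empty vector in E0771. Wild-type MRTFA raised Acta2 by a log2 change of 3.83 ± 0.14 in AT-3 (14.2-fold, edgeR adjusted p = 3.07e-12) and 4.66 ± 0.14 in E0771 (25.2-fold, edgeR adjusted p = 5.52e-12). Y238A MRTFA lowered Acta2 in AT-3 by a log2 change of -0.86 ± 0.12 (edgeR adjusted p = 4.11e-05). In E0771 the change was -0.20 ± 0.12 (edgeR adjusted p = 0.322), and -0.24 without the 4 libraries named above (edgeR adjusted p = 0.0365).

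Actg2, the smooth muscle gamma actin, differed more between the empty-vector lines than the other 5 actins. Empty-vector AT-3 cells had 282, 285 and 287 CPM of Actg2, and empty-vector E0771 cells had 2.58, 6.25 and 2.89 CPM. The highest of the E0771 values came from replicate 2, the library with the most AT-3 transcripts. With wild-type MRTFA the values were 5969, 6606 and 6414 CPM in AT-3 and 1059, 984 and 948 CPM in E0771. With Y238A MRTFA they were 110, 54.6 and 40.2 CPM in AT-3, all below the empty vector, and 17.5, 6.16 and 3.45 CPM in E0771, overlapping it. Wild-type MRTFA raised Actg2 by a log2 change of 4.47 ± 0.56 in AT-3 (edgeR adjusted p = 1.04e-05) and 8.001 ± 0.67 in E0771 (edgeR adjusted p = 1.52e-06). Y238A MRTFA lowered it in AT-3 by -2.06 ± 0.51 (edgeR adjusted p = 0.00492), and by -2.59 without the 4 libraries (edgeR adjusted p = 5.57e-07). In E0771 the Y238A value was 1.23 ± 0.55 (edgeR adjusted p = 0.183), and 0.82 without those libraries (0.0849).

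Acta1, the skeletal muscle alpha actin, was at a low level without wild-type MRTFA. Its levels with the empty vector were 6.79, 7.27 and 7.49 CPM in AT-3 and 1.95, 2.03 and 2.24 CPM in E0771. With wild-type MRTFA they were 3932, 4171 and 4198 CPM in AT-3 and 829, 727 and 690.3 CPM in E0771. The fitted log2 change was 9.16 ± 1.01 in AT-3 (edgeR adjusted p = 3.2e-06) and 8.49 ± 1.01 in E0771 (edgeR adjusted p = 4.21e-05). With Y238A MRTFA the values spread widely, at 45.3, 9.96 and 2.69 CPM in AT-3 and 8.96, 3.18 and 1.25 CPM in E0771, from above to below the empty vector. The Y238A change was 1.43 ± 0.77 in AT-3 (edgeR adjusted p = 0.161) and 1.13 ± 0.88 in E0771 (0.472). Without AT-3 Y238A replicate 1 the AT-3 value turned to -0.18 (edgeR adjusted p = 0.887), and without replicate 3 it was 1.95 (0.0275).

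Actc1, the cardiac alpha actin, went from a few counts per library to a clear signal in both lines. The AT-3 empty-vector libraries held 2, 0 and 4 counts of Actc1, and those of E0771 held 8, 8 and 5. With wild-type MRTFA the levels were 1056, 1016 and 1079.7 CPM in AT-3 and 832, 671 and 647 CPM in E0771, without overlap. The fitted log2 changes were 15.41 ± 1.22 in AT-3 (edgeR adjusted p = 1.08e-07) and 13.30 ± 1.09 in E0771 (edgeR adjusted p = 1.16e-06), against empty-vector groups that held 6 and 21 counts in all, so their size is set by a few counts. With Y238A MRTFA, Actc1 had 1182, 318 and 80 counts in AT-3 (11.7, 3.18 and 0.839 CPM) and 220, 34 and 22 counts in E0771 (2.09, 0.369 and 0.252 CPM). All 6 libraries were above the empty vector of their line. The log2 change was 7.77 ± 1.60 in AT-3 (edgeR adjusted p = 0.00144, and 6.39 with adjusted p = 0.000414 without the 4 libraries) and 3.74 ± 1.72 in E0771 (0.196).

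The low Actc1 and Acta1 levels in AT-3 Y238A libraries were set beside those of the 32 genes above. Those genes were chosen as high with wild-type MRTFA and nearly absent with the empty vector. As a percentage of the AT-3 wild-type mean, Actc1 in AT-3 Y238A replicates 1, 2 and 3 was 1.12%, 0.303% and 0.0799%, and Acta1 was 1.11%, 0.243% and 0.0655%. The 32 other genes had medians of 1.27%, 0.265% and 0.11% in the same libraries. The order of the libraries and the size of the values were close in all 3 sets. Empty-vector AT-3 cells had Acta1 at 0.166 to 0.183% of the wild-type mean, above Y238A replicate 3. In E0771 Y238A replicates 1, 2 and 3, Actc1 was 0.291%, 0.0515% and 0.0351% of the E0771 wild-type mean and Acta1 was 1.2%, 0.425% and 0.167%. In those libraries 11 other genes had medians of 1.35%, 0.543% and 0% of the E0771 wild-type mean. They were chosen as expressed with wild-type MRTFA in E0771 and nearly absent with the empty vector of both lines. Acta1 lay closer to these medians than Actc1 in replicates 1 and 2. In replicate 3 both lay between the median of 0% and the upper quartile of 0.799%. Empty-vector E0771 cells had Acta1 at 0.261 to 0.3% of the E0771 wild-type mean, above Y238A replicate 3. The part that transcripts of other groups have in the Y238A values of Actc1 and Acta1 was not tested.

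**Figure D3:**
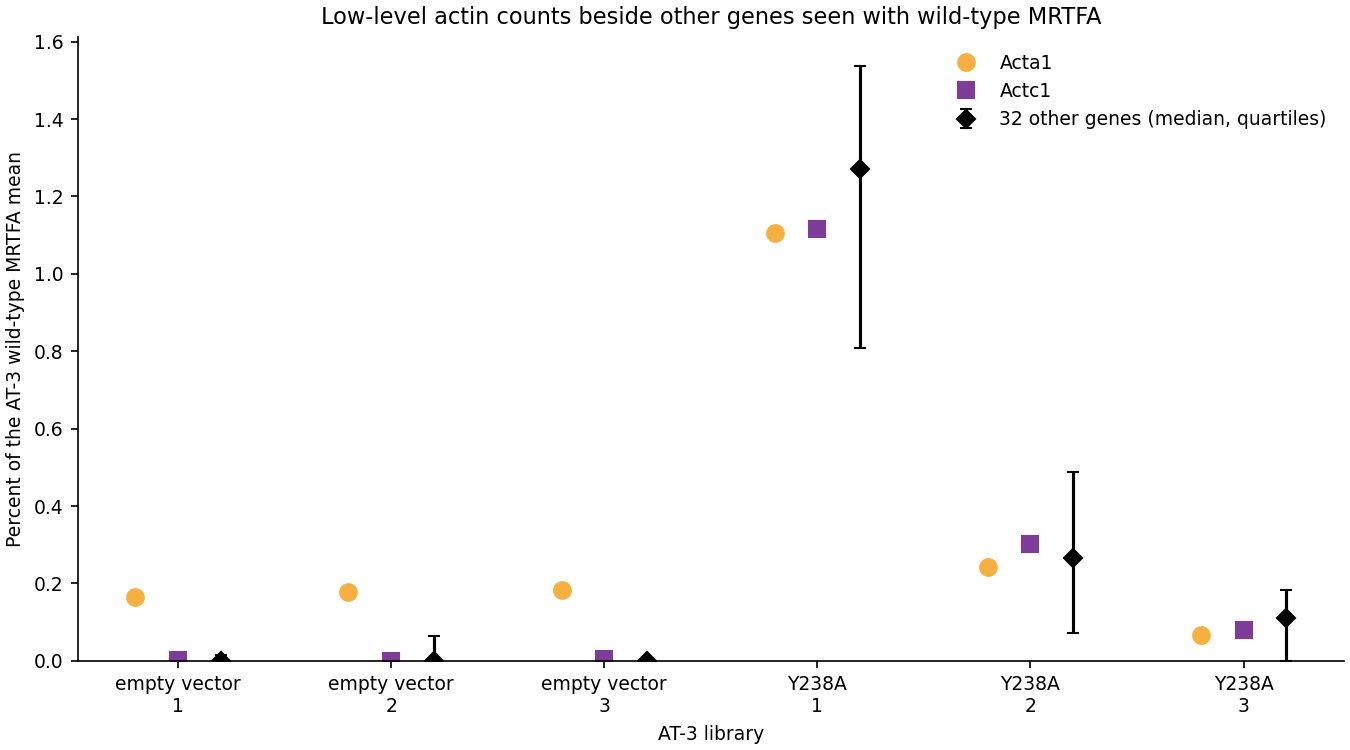
Acta1 and Actc1 in the AT-3 empty-vector and Y238A libraries, as a percent of their mean with wild-type MRTFA, beside the median and quartiles of 32 other genes seen with wild-type MRTFA. In Y238A replicate 1 the values are 1.11%, 1.12% and 1.27%, and in replicate 3 they are 0.0655%, 0.0799% and 0.11%.

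Counted over the family, all 6 actins rose with wild-type MRTFA in AT-3, where 68.6% of the 17841 genes tested changed, 36.4% up and 32.2% down. All 6 rose in E0771, where 24.5% of genes changed, 11.2% up and 13.3% down. The median log2 change of the 6 was 4.15 in AT-3 and 6.33 in E0771, beside medians over all genes of 0.07 and -0.05. Scaling by library totals in place of TMM moved the median of all genes in AT-3 from 0.07 to -0.07, and all 6 actins still rose. With Y238A MRTFA against the empty vector in AT-3, Actb, Actg1, Acta2 and Actg2 fell and Actc1 rose, 5 of 6 genes, where 43.7% of all genes changed, 21.4% up and 22.2% down. In E0771 Actb and Actg1 fell, 2 of 6, where 12% of all genes changed, 5.41% up and 6.64% down. With library totals Actg1 passed and Actb did not, and without the 4 libraries Actg1 and Acta2 passed and Actb did not. All 6 were higher with wild-type than with Y238A MRTFA in AT-3 (66.2% of genes differed, 34.8% higher and 31.4% lower) and in E0771 (25.7% differed, 12.7% higher and 13% lower). In that comparison the log2 differences in AT-3 were 1.30 for Actb, 1.16 for Actg1, 4.68 for Acta2, 6.54 for Actg2, 7.73 for Acta1 and 7.64 for Actc1. The E0771 differences were 1.31, 1.23, 4.86, 6.77, 7.37 and 9.56 in the same order. The 3 comparisons within a line share libraries, so they are not independent of one another.

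**Figure D4:**
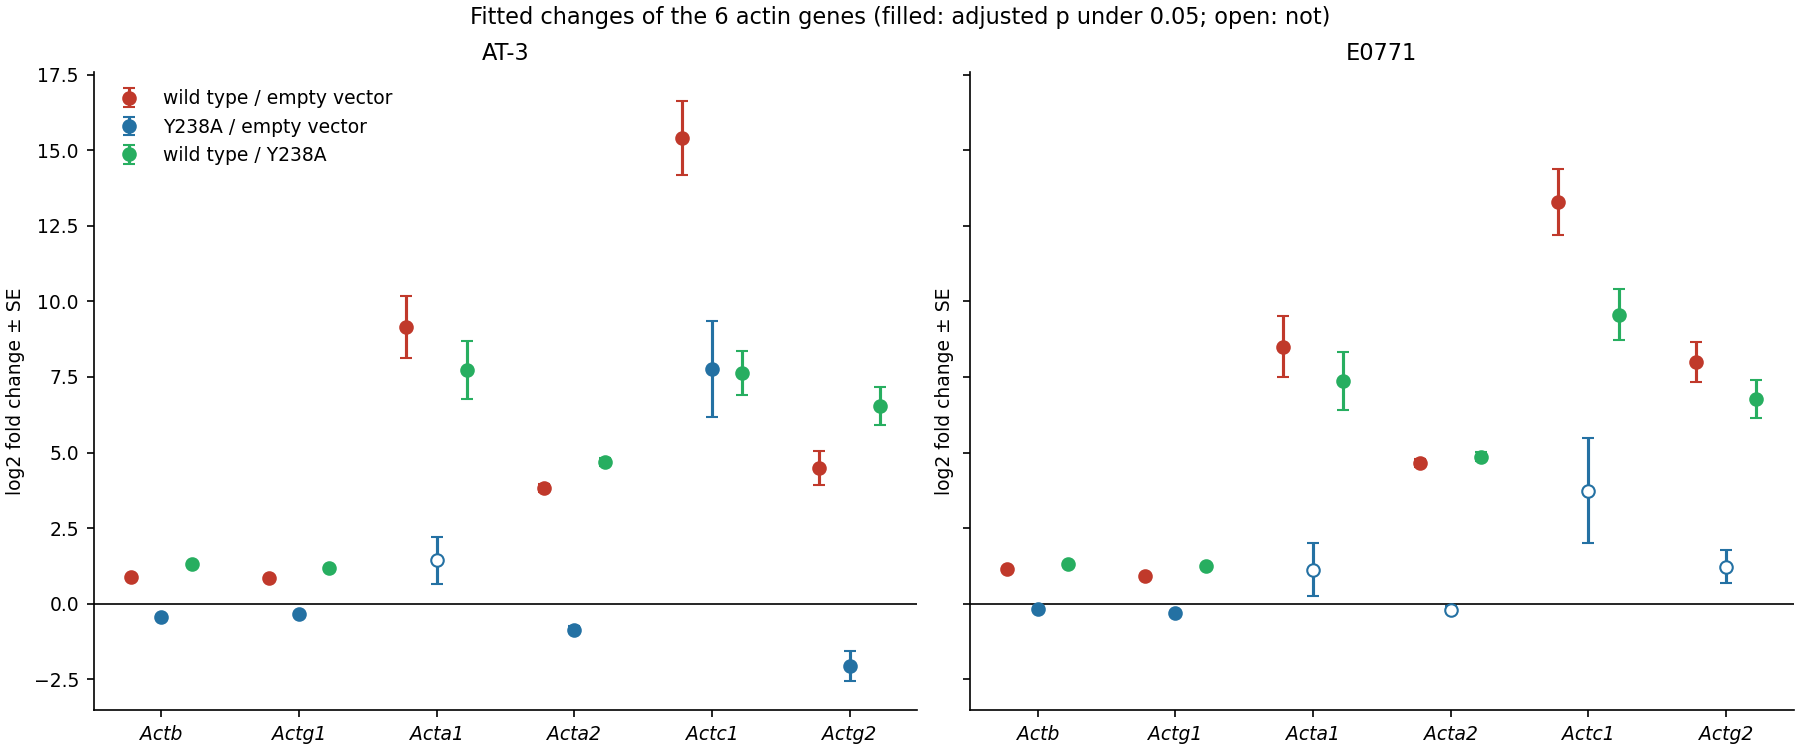
Fitted log2 fold changes of the 6 actin genes with their standard errors in AT-3 (left) and E0771 (right). Filled points passed an adjusted p of 0.05 and open points did not; the muscle actins lie between 3.83 and 15.41 for wild-type MRTFA over empty vector, and the cytoplasmic actins between 0.83 and 1.14.

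The actin transcripts grew in sum and changed in kind. The summed counts of the 6 genes were 12755 ± 132 CPM with the empty vector, 70689 ± 1916 CPM with wild-type and 8867 ± 510 CPM with Y238A MRTFA in AT-3 (SD, n = 3 each). In E0771 the sums were 7474 ± 274, 27831 ± 1286 and 6509 ± 393 CPM. As a share of all counts in a library they were 1.26%, 6.27% and 0.886% in AT-3 and 0.779%, 2.87% and 0.693% in E0771. Averaged over the lines, wild-type MRTFA raised the sum by 2.18 on the log2 scale (2.47 in AT-3 and 1.90 in E0771), and Y238A MRTFA changed it by -0.36 (-0.53 and -0.20). Each of these had a two-sided exact permutation p of 0.005, the smallest that permuting labels within each line can give, and an adjusted p of 0.00632 over the 24 tests of sums and shares.

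With wild-type MRTFA the muscle actins held most actin counts in AT-3 and somewhat fewer than the cytoplasmic actins in E0771. Their summed share in AT-3 was 25.3, 25.8 and 25.4% with the empty vector and 76.8, 75.2 and 75.0075% with wild-type MRTFA. In E0771 it was 5.32, 5.96 and 5.4005% with the empty vector and 47, 45.5 and 45.6% with wild-type MRTFA. Which set was larger in E0771 depended on length: per kilobase of exon the muscle share there was 52.8 ± 0.866% (SD, n = 3, from 52.2 to 53.8%), and per kilobase of the longest coding transcript it was 46.7 ± 0.866%. The rise averaged 45.3 percentage points over the lines, 50.1 in AT-3 and 40.4 in E0771 (exact permutation p = 0.005, adjusted p = 0.00632). With Y238A MRTFA the share was 23.1, 18.6 and 16.4% in AT-3, below the empty vector in all 3 libraries, and 6.42, 5.75 and 4.91% in E0771, on both sides of it. The change averaged -3.02 points (-6.16 and 0.128; exact permutation p = 0.06, adjusted p = 0.0686), and was -3.20 points with an adjusted p of 0.0343 without E0771 Y238A replicate 1. Within a single line an exact permutation test of 3 against 3 libraries cannot go below p = 0.1, so no call is made there.

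By isoform, Acta2 went from 23.2% to 59.4% of actin counts in AT-3 and from 5.48% to 37.2% in E0771 with wild-type MRTFA. Actb, which rose in level, fell in share from 58.9% to 19.4% and from 70.9% to 42%. Actg1 fell in share from 15.6% to 4.99% and from 23.5% to 12%. The shares of Acta1, Actc1 and Actg2 rose by 4.20, 2.03 and 5.12 percentage points over the lines, and all 6 isoform shares differed in this comparison (exact permutation p = 0.005 for each, adjusted p = 0.00632). Against the empty vector, Y238A MRTFA raised the share of Actb by 2.70 points and that of Actc1 by 0.0347 points (exact permutation p = 0.005, adjusted p = 0.00632 each). The Actc1 call was lost without any one of the 3 AT-3 empty-vector libraries (exact permutation adjusted p = 0.0884 each), and its value was 0.0179 points without AT-3 Y238A replicate 1 and 0.0137 points without the 4 libraries named above. The shares of Actg1 (0.313 points), Acta1 (0.0961), Acta2 (-2.45) and Actg2 (-0.696) had exact permutation adjusted p-values of 0.67, 0.162, 0.06 and 0.104. These are averages over lines that can differ. The Actg1 share changed by 2.26 points in AT-3 and by -1.63 in E0771, without overlap of the groups in either line. In the same order Acta2 changed by -4.90 and -0.00868 points, Actg2 by -1.48 and 0.0848, and Acta1 by 0.153 and 0.0397. Acta2 passed without E0771 Y238A replicate 1 (0.0343), and Acta1 without AT-3 or E0771 Y238A replicate 3 (0.024 each). The widest 95% Clopper-Pearson interval of any single library's share was 0.235 percentage points. It covers at most counting error and takes counts as independent, which they may not be.

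**Figure D5:**
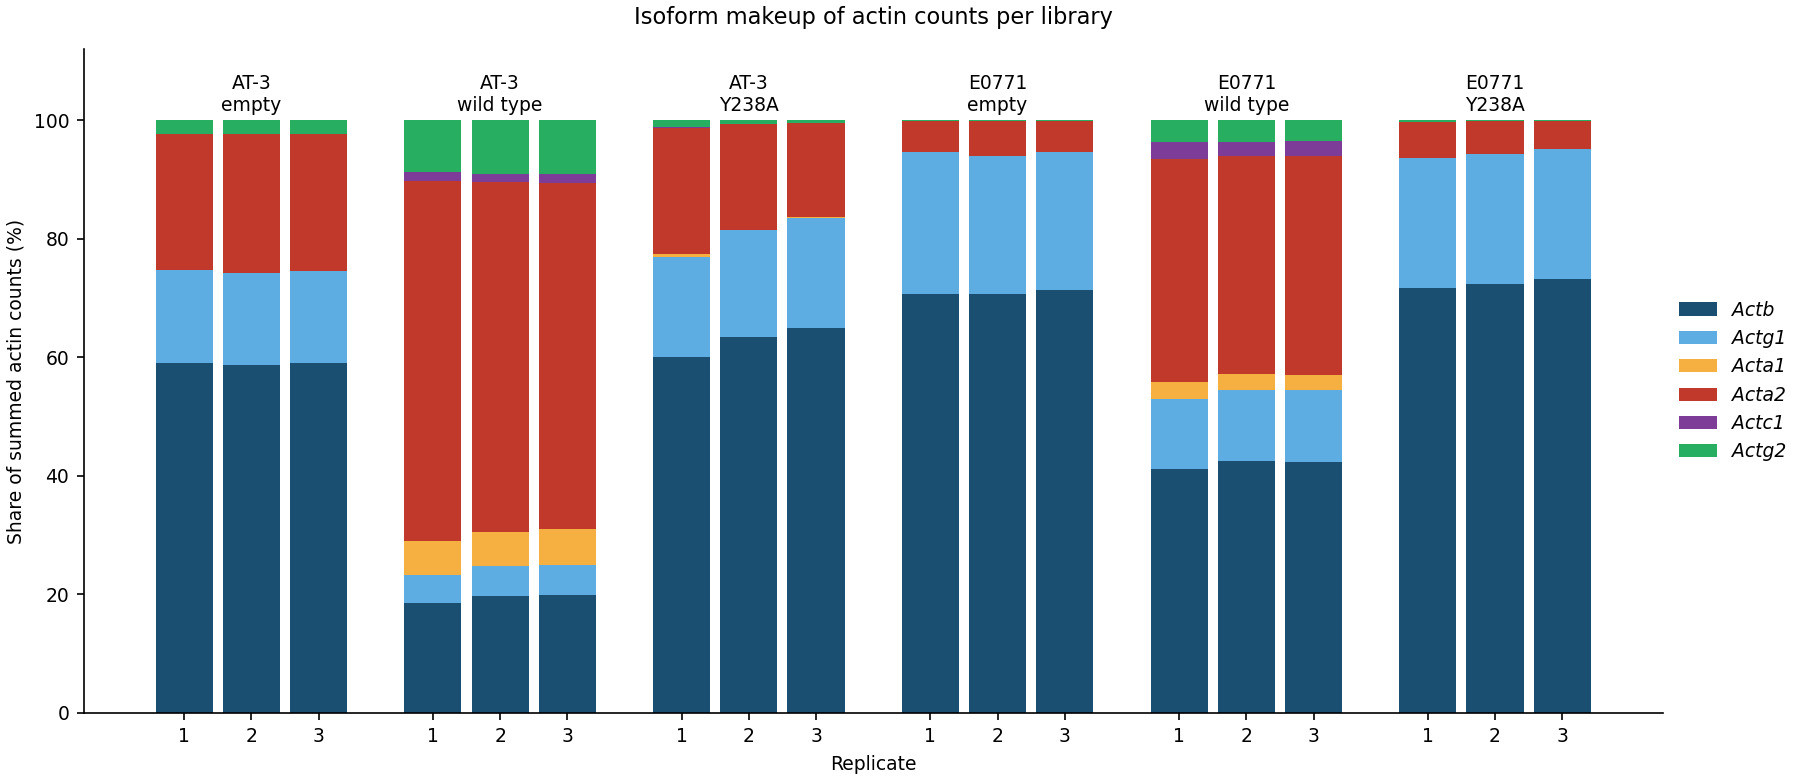
Share of each of the 6 actin genes in the summed actin counts of every library, as stacked bars from 0 to 100%. The 4 muscle actins take 75.0075 to 76.8% of the AT-3 wild-type bars and 45.5 to 47% of the E0771 wild-type bars.

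Levels of different genes were compared per kilobase of exon, since longer transcripts give more reads. In empty-vector AT-3 cells the order was Actb at 2805 ± 32.9 CPM per kilobase, Acta2 at 1349 ± 15.3, Actg1 at 747 ± 9.13, Actg2 at 183 ± 1.67, Acta1 at 4.68 ± 0.233 and Actc1 at 0.015 ± 0.0153 (SD, n = 3 each). With wild-type MRTFA the AT-3 order became Acta2 at 19122 CPM per kilobase, Actb at 5108, Actg2 at 4065, Acta1 at 2669, Actg1 at 1329 and Actc1 at 649, with no overlap between neighbours. In AT-3 Y238A cells Actb, Acta2 and Actg1 were at 2077, 744 and 593 CPM per kilobase, above the 3 others. In empty-vector E0771 cells the order was Actb at 1978 CPM per kilobase, Actg1 at 662, Acta2 at 187, Actg2 at 2.51, Acta1 at 1.35 and Actc1 at 0.0433.

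In E0771 with wild-type MRTFA the first place depended on the length used. Per kilobase of exon, Acta2 at 4712 ± 266 CPM stood above Actb at 4360.2 ± 137. Per kilobase of the longest coding transcript, which is shorter than the exons for both genes, Actb at 6084 ± 192 CPM stood above Acta2 at 5085 ± 287. Actg1, Actg2, Acta1 and Actc1 followed at 1256, 640.4, 488 and 443 CPM per kilobase of exon, and the libraries of Acta1 and Actc1 overlapped. The order of Actg1 and Acta2 in AT-3 Y238A cells also turned with the length, at 808 and 803 CPM per kilobase of the longest coding transcript, with overlap.

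Across groups, Actb was ordered from AT-3 wild-type (13686 CPM) through E0771 wild-type (11681 CPM), AT-3 empty vector (7516 CPM), AT-3 Y238A (5563 CPM), E0771 empty vector (5299 CPM) and E0771 Y238A (4713 CPM), with no overlap between neighbours. The 2 wild-type groups overlapped for Actg1 and were apart for Actb, Acta1, Acta2, Actc1 and Actg2. The share of all genes that were apart between these groups was not counted. The other groups of Acta1 overlapped their neighbours throughout, from 19.3 CPM in AT-3 Y238A to 2.08 CPM in E0771 empty vector.

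The lines differed before MRTFA was added. Against AT-3, empty-vector E0771 cells had less Actb (log2 difference -0.50 ± 0.05, edgeR adjusted p = 8.03e-09), Actg1 (-0.17 ± 0.05, 0.00427), Acta2 (-2.85 ± 0.13, 3.1e-11) and Actg2 (-6.19 ± 0.62, 9.3e-07). That made 4 of 6 lower, where 72% of all genes differed, 35.2% higher and 36.8% lower. Actg1 did not pass with library totals (edgeR adjusted p = 0.076). Acta1 was lower in every E0771 library but did not pass (-1.79 ± 0.87, edgeR adjusted p = 0.0824), and it passed without the 4 libraries (0.0143) and without AT-3 Y238A replicate 1 (0.0178) or 3 (0.0282). Actc1 differed by 1.55 ± 4.16 at 6 against 21 counts (edgeR adjusted p = 0.761). The muscle actin share was 25.5 ± 0.24% in AT-3 and 5.56 ± 0.35% in E0771 (SD, n = 3 each), and the groups did not overlap.

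The size of the wild-type response was then compared between the lines with an interaction term. For 3 of 6 genes the log2 change over the empty vector was larger in E0771: Actb by 0.28 ± 0.07 (edgeR adjusted p = 0.00227), Acta2 by 0.83 ± 0.17 (9.92e-04) and Actg2 by 3.53 ± 0.73 (0.00143). Of all genes, 47.3% passed this test, 23.3% with the larger value in E0771 and 24% with the smaller. The differences for Actg1 (0.09, edgeR adjusted p = 0.309), Acta1 (-0.66, 0.686) and Actc1 (-2.11, 0.737) did not pass. Actg1 passed with library totals (0.23, edgeR adjusted p = 0.00702), with a stricter filter (0.16, 0.029), and without AT-3 wild-type replicate 2 (0.32, 0.000574) or 3 (0.28, 0.00272). The Y238A response also differed between the lines for Actb (0.26 ± 0.07, edgeR adjusted p = 0.00655), Acta2 (0.66 ± 0.17, 0.011) and Actg2 (3.29 ± 0.74, 0.00553), where 25.8% of all genes passed, 12.2% with the larger value in E0771 and 13.6% with the smaller. Both tests use the same empty-vector libraries, in which E0771 had the lower levels of all 3 genes. The MRTFA entry was also lower in E0771, at 761 against 5434 CPM with wild-type and 320 against 2105 CPM with Y238A MRTFA. Line and construct level therefore cannot be told apart in these tests.

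The difference between wild-type and Y238A MRTFA, which does not use the empty-vector libraries, passed the test between the lines for 0 of 6 actins by edgeR, where 45.7% of all genes passed, 22.9% with the larger value in E0771 and 22.7% with the smaller. At an unadjusted edgeR p under 0.05 it was also 0 of 6. DESeq2 called none of the actins it gave an adjusted p for, and it gave none for Acta1 here. The log2 differences between the lines were 0.01 for Actb, 0.07 for Actg1, 0.18 for Acta2, 0.24 for Actg2, -0.36 for Acta1 and 1.92 ± 0.98 for Actc1 (edgeR adjusted p = 0.134). With library totals Actg1 passed (0.19, edgeR adjusted p = 0.0251), and without the 4 libraries Actc1 did (2.19, 0.0357). Without AT-3 wild-type replicate 2 Actb (0.17, 0.0425) and Actg1 (0.24, 0.00661) passed, without AT-3 wild-type replicate 3 Actg1 did (0.20, 0.0257), and without AT-3 Y238A replicate 3 or E0771 Y238A replicate 1 Actc1 did (2.42, 0.0234, and 3.53, 0.0351).

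Over the 18 libraries the actins' log2 levels moved most closely together in the cytoplasmic pair (Actb and Actg1, Pearson r = 0.984) and the smooth muscle pair (Acta2 and Actg2, r = 0.983), and least in Actc1 and Actg2 (r = 0.754). Among 11526 other genes with a mean of at least 1 CPM, the 3 nearest to Actb were Csnk1a1 (r = 0.991), Fermt2 (0.984) and Rsu1 (0.982), a kinase gene and a pair of integrin adhesion genes. Csnk1a1 (0.974), Actn1 (0.974) and Rsu1 (0.972) were nearest to Actg1. Csrp1 (0.991), a LIM protein gene of smooth muscle, Vwa5b2 (0.987) and Traf5 (0.985) were nearest to Acta2. Msrb3 (0.974), Csrp1 (0.972) and Ccn2 (0.972) were nearest to Actg2. Ccna1 (0.993), Pilra (0.992) and Lmod1 (0.99), the gene of an actin filament nucleator of smooth muscle, were nearest to Acta1. Doxl2 (0.975), Psca (0.968) and Gabra3 (0.963) were nearest to Actc1. These correlations describe 18 points in 6 groups that share the wild-type contrast, and no test was made.

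Actin has to be folded by the chaperonin CCT and its cochaperone prefoldin before it can polymerise, and 15 of their genes were counted. With wild-type MRTFA 5 rose and 7 fell in AT-3 (median log2 change -0.13, over all genes 0.07), where 36.4% of all genes rose and 32.2% fell. In E0771 1 rose and 1 fell (median -0.07, over all genes -0.05), where 11.2% of all genes rose and 13.3% fell. For the lists that follow, the shares of all genes to set beside the Y238A counts were 21.4% up and 22.2% down in AT-3 and 5.41% and 6.64% in E0771, and those beside wild-type over Y238A were 34.8% and 31.4%, then 12.7% and 13%. The gene of the CCT cofactor Pdcl3 rose in both lines, by 0.88 ± 0.05 in AT-3 (edgeR adjusted p = 4.23e-12) and 0.75 ± 0.05 in E0771 (4.25e-10). Cct2 fell by -0.67 in AT-3 and Pfdn6 by -0.18 in E0771. With Y238A MRTFA 9 fell and 0 rose in AT-3, led by Tcp1 (-0.72 ± 0.04, edgeR adjusted p = 3.24e-11), and 5 fell and 0 rose in E0771, led by Cct3 (-0.19). Wild-type over Y238A, 6 were higher and 4 lower in AT-3 (Cct3 0.84, Cct2 -0.34) and 3 higher and 1 lower in E0771 (Pdcl3 0.83, Pfdn6 -0.18).

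Of 18 genes for monomer binding and turnover, wild-type MRTFA raised 8 and lowered 8 in AT-3 (36.4% and 32.2% of all genes), and raised 8 and lowered 2 in E0771 (11.2% and 13.3% of all genes). Dstn, which encodes the filament-severing protein destrin, rose most firmly in both lines, by 2.79 ± 0.05 (edgeR adjusted p = 2.07e-19) and 1.91 ± 0.05 (2.09e-16). Limk2, the gene of a kinase that inactivates the cofilin family, changed by -1.28 ± 0.07 in AT-3, and by -0.29 ± 0.07 in the E0771 line. With Y238A MRTFA 4 rose and 9 fell in AT-3, with gelsolin (Gsn) at 1.17 and profilin 2 (Pfn2) at -1.08, and 1 rose and 5 fell in E0771, with Ssh3 at 0.32 and thymosin beta 4 (Tmsb4x) at -0.43. Wild-type over Y238A, 10 were higher and 7 lower in AT-3 (Dstn 2.96, Ssh3 -1.63) and 9 higher and 2 lower in E0771 (Dstn 2.06, Ssh3 -0.56).

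The Arp2/3 complex nucleates branched filaments. Of its 10 genes, wild-type MRTFA raised 6 and lowered 4 in AT-3 (36.4% and 32.2% of all genes) and raised 5 and lowered 2 in E0771 (11.2% and 13.3% of all genes). Arpc5 led the rises, at 1.33 ± 0.05 (edgeR adjusted p = 1.5e-15) and 0.91 ± 0.05 (5.76e-12). The largest falls by p were Arpc5l in AT-3 (-0.53) and Arpc1b in E0771 (-0.21). With Y238A MRTFA 1 rose and 4 fell in AT-3 (Arpc1b 0.16, Actr3 -0.42), and 0 rose and 2 fell in E0771 (Actr3 -0.14). Wild-type over Y238A, 5 were higher and 2 lower in each line, with Arpc5 at 1.28 and 0.83, Actr3b at -2.03 in AT-3 and Arpc1b at -0.33 in E0771. Of 9 other actin-related protein genes 7 were tested. With wild-type MRTFA 2 rose (Actr8 0.42 first) and 2 fell (Actl6a -0.34 first) in AT-3, and 0 changed in E0771. With Y238A MRTFA 3 rose in AT-3 (Actr1b 0.40 first) and 0 changed in E0771. Wild-type over Y238A, 3 were higher and 3 lower in AT-3 (Actr8 0.40, Actl6a -0.54) and 2 higher in E0771 (Actr10 0.22).

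Of 6 tested genes of enzymes that modify actin, wild-type MRTFA raised 4 and lowered 1 in AT-3 (36.4% and 32.2% of all genes) and raised 5 in E0771 (11.2% of all genes). Msrb1, the gene of a reductase that restores oxidised methionines of actin, rose by 3.03 ± 0.08 in AT-3 (edgeR adjusted p = 1.18e-16). Mical2, the gene of an enzyme that oxidises actin, rose by 1.65 ± 0.06 in E0771 (edgeR adjusted p = 4.49e-14) and fell by -0.57 ± 0.06 in AT-3 (2.92e-08). With Y238A MRTFA 3 rose and 2 fell in AT-3 (Setd3, the gene of actin's histidine methyltransferase, 0.38, and Mical1 -0.96), and 3 rose in E0771 (Mical2 0.46). Wild-type over Y238A, 3 were higher and 2 lower in AT-3 (Msrb1 2.69, Setd3 -0.39) and 2 higher in E0771 (Msrb1 2.20).

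Most genes of filament capping and cross-linking proteins rose. Of 15, wild-type MRTFA raised 11 and lowered 1 in AT-3 (median log2 change 0.92), where 36.4% of all genes rose and 32.2% fell, and raised 12 and lowered 0 in E0771 (median 0.80), where 11.2% rose and 13.3% fell. Filamin A (Flna) led in AT-3 at 1.31 ± 0.05 (edgeR adjusted p = 4.22e-15) and alpha-actinin 1 (Actn1) in E0771 at 1.40 ± 0.04 (3.63e-15). Capg, the gene of a filament-end capping protein, fell in AT-3 by -0.75 ± 0.04 (edgeR adjusted p = 1.8e-12). With Y238A MRTFA, where 21.4% of all genes rose and 22.2% fell in AT-3, 6 rose and 8 fell there (Capg 0.32, Flna -0.58), and 0 rose and 2 fell in E0771 (fascin, Fscn1, -0.27). Wild-type over Y238A, 11 were higher and 1 lower in AT-3 (Flna 1.89, Capg -1.07) and 14 higher and 0 lower in E0771 (Actn1 1.30).

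Markers of muscle lineages were measured beside the muscle actins. Of 5 smooth muscle markers, the summed level rose from 291 to 298 CPM with the empty vector to 2666 to 2739 CPM with wild-type MRTFA in AT-3, and from 123 to 126 CPM to 264 to 288 CPM in E0771. The calponin gene Cnn1 had means of 167 and 1741 CPM in AT-3 and 0.92 and 27.1 CPM in E0771, and Myh11, the smooth muscle myosin heavy chain gene, 1.05 and 782 CPM, then 0.209 and 34.9 CPM. Myocd, the gene of the muscle-restricted relative of MRTFA, was at 0 and 0.843 CPM in AT-3 and 0.0674 and 0.136 CPM in E0771. The 5 skeletal muscle lineage regulators (Myod1, Myog, Myf5, Myf6 and Pax7) summed to at most 0.293 CPM in any library, so these defining markers were at or near 0 in cells with 4100.3 CPM of Acta1. Of the cardiac regulators, Nkx2-5 was at 26.5 CPM with the empty vector and 107 CPM with wild-type MRTFA in AT-3 and at 0.0702 and 0.436 CPM in E0771, while Actc1 reached 1051 and 717 CPM. Gata4 was at 18.5 and 29.5 CPM in AT-3 and 0.135 and 0.0315 CPM in E0771, and Tbx5 was at most 0.0165 CPM in every group mean. Bulk libraries cannot tell fewer expressing cells from less RNA per cell. Of 5 leukocyte markers, the defining genes Ptprc and Cd3e had means of at most 0.159 and 0.0613 CPM in every group. The summed level of the 5 moved with Y238A MRTFA, from 15.9 to 18.7 CPM with the empty vector to 103.3 to 108.4 CPM in AT-3, and from 8.59 to 10.8 to 16.3 to 21 CPM in E0771; with wild-type MRTFA it was 26.8 to 27.7 and 6.98 to 7.53 CPM. In AT-3 the mean of Cd68, a lysosomal gene of macrophages, was 3.43 CPM with the empty vector, 20.9 CPM with wild-type and 72 CPM with Y238A MRTFA, and that of Cd14 was 11.9, 5.55 and 31.6 CPM. In the same order Cd68 was at 3.9, 3.03 and 14.2 CPM in E0771, and Cd14 at 1.28, 1.15 and 1.56 CPM. Lyz2 did not rise with either form, at 2.04, 0.558 and 1.55 CPM in AT-3 and 4.4, 3.04 and 2.96 CPM in E0771. The endothelial list summed to at most 3.73 CPM in every library. The part of cell makeup in the actin results was not tested.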

How the data were processed

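RNA was measured in 18 libraries of 6 groups. Per the labels, RNA was extracted with RNeasy and made into NuGen Universal Plus mRNA libraries, and, per the submitters' processing notes, STAR and featureCounts were used with GRCm38; versions, annotation release, strand setting and the treatment of reads that match several places are not given in the sources used here. The deposited values are raw counts per gene. Even numbers made up 61.9 to 64.6% of nonzero counts, so counts may not be independent molecules. The intervals take counts as independent, so they cover at most counting error and may be too narrow for it. Depth was 81265466 to 115260128 counts per library.

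Counts were tested with edgeR 4.0.16 (quasi-likelihood, TMM, 6 group means, 12 residual degrees of freedom) on 17841 of 32286 entries that passed filterByExpr with a minimum count of 10, with Benjamini-Hochberg adjustment over all of them and a threshold of 0.05. P-values measure the spread between replicate sets, whose cultures are not described further. Shares and sums were tested by exact permutation within lines (400 arrangements), adjusted over 24 tests. Sequences came from RefSeq (GRCm38.p6) and lengths from GENCODE M21, in which 32235 entries matched. The scripts were tested on simulated data. DESeq2 1.42.0, other scalings and filters, a replicate block and left-out libraries were alternatives.

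The members, lists and tests were chosen with earlier results of these data known. The text names the 6 actins, MRTFA and Srf, the 3 genes of highest Pearson r with each actin, and from each list (actin folding, monomer binding and turnover, Arp2/3 complex, other actin-related proteins, modification, capping and cross-linking) the member of smallest p in each direction, for comparisons of constructs within a line. Same-numbered libraries deviated together in E0771 wild-type against empty vector (r = 0.173, 0.394 and 0.173 for replicates 1, 2 and 3), whose replicate 2 libraries both held AT-3 transcripts, and not in all pairs of any other comparison within a line. The block changed no call.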

Additional observations from a re-analysis of the deposited data

Results flagged for a closer look

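For 3 actin genes the response to a construct differed between the lines by a test of the difference itself, the edgeR interaction term. Each value is the E0771 log2 change minus the AT-3 log2 change. For wild-type MRTFA against the empty vector the values were 0.28 for Actb (SE 0.07, adjusted p = 0.00227), 0.83 for Acta2 (SE 0.17, adjusted p = 9.92e-04) and 3.53 for Actg2 (SE 0.73, adjusted p = 0.00143). For Y238A MRTFA against the empty vector they were 0.26 for Actb (SE 0.07, adjusted p = 0.00655), 0.66 for Acta2 (SE 0.17, adjusted p = 0.011) and 3.29 for Actg2 (SE 0.74, adjusted p = 0.00553). The same 6 empty-vector libraries enter both sets of values. The MRTFA entry was lower in E0771 than in AT-3 with both forms, so line and construct level cannot be told apart in either set.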

How the results depend on the processing

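Of the alternatives to the counts of changed actins, the muscle share and the sum, 338 were scored as the same, 7 as a gain and 4 as a loss. For the counts of changed actins, the same score allowed a small shift, such as from 2 to 3. It also did not require the same genes, so the 338 are not all unchanged calls. The 2 changed actins in E0771 with Y238A MRTFA became 1 with library totals, 3 with DESeq2, and 1 to 2 when a library was left out. Without the 4 libraries the count was 2, with Acta2 gained and Actb lost. The 0 actins whose wild-type to Y238A difference differed between lines became 1 with library totals and 1 without the 4 libraries holding transcripts of other groups, and 0 to 2 with a library left out (2 without AT-3 wild-type replicate 2, and 1 without AT-3 wild-type replicate 3, AT-3 Y238A replicate 3 or E0771 Y238A replicate 1). The Y238A muscle share change of -3.02 points ranged from -3.95 to -2.28 with 1 library left out, and was -4.03 without the 4 libraries. The cause was not tested.

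For single genes and shares, 1768 alternatives gave the same call, 21 gained one, 9 lost one and 16 changed sign, all 16 in results that had not passed. Without the 4 libraries, Acta1 turned to -0.18 in AT-3 Y238A against empty vector and to 0.26 in its difference between lines. The Actb line difference for wild-type against Y238A turned from 0.01 to -0.0237407 with DESeq2 and -0.0237436 with its size factors. With 1 library left out, Acta1 ranged from -0.18 to 1.95 in AT-3 Y238A, and its line differences from -1.33 to 1.30 (Y238A over the control) and -1.96 to 0.67 (wild-type over Y238A). In the same way the line differences ranged from -0.0353 to 0.168 for Actb and -0.28 to 1.16 for Actg2 (wild-type against Y238A), and from -0.00714 to 0.08003 for Actg1 (Y238A against empty vector). DESeq2 called Actc1 in E0771 Y238A against empty vector (3.69, adjusted p = 2.99e-04), and gave no adjusted p for Acta1 in several comparisons, which were left out of these counts.

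With replicate number as a block, the changed actins stayed 6, 5 and 6 in AT-3 (each MRTFA form against the control, then one form against the other) and 6, 2 and 6 in E0771. The block left the sum at 2.18 for wild-type MRTFA, with an exact sign-flip adjusted p of 0.0395. Depth limits Actc1 with the empty vector, at 6 counts in AT-3 and 21 in E0771.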
